A study of Arabidopsis thaliana with 22 samples.

Results

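KIN1 (AT5G15960), KIN2 (AT5G15970), COR15A (AT2G42540) and COR15B (AT2G42530) are 4 cold- and abscisic acid (ABA)-induced genes of Arabidopsis, which form 2 tandem pairs, KIN1 beside KIN2 on chromosome 5 and COR15B beside COR15A on chromosome 2. In the gene order of the reference annotation, 0 genes lie between the members of either pair. The genes were taken by name from the array annotation, which gives each a probe set of its own, and all 4 are among the brighter named probe sets that were tested. Their levels and their responses to ABA were followed through all groups of the study, and the genes of a pair were compared with each other.

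The study hybridised leaf RNA of 4 genotypes to 22 arrays (Affymetrix Arabidopsis Gene 1.0 ST), each genotype after an ABA spray and after a mock spray of the ethanol solution without ABA. The genotypes are ost1-2 sal1-8, hereafter the double mutant (3 ABA and 3 mock arrays), ost1-2 (2 ABA and 2 mock arrays), sal1-8, which the labels call alx8 (3 and 3), and wild type, here a first-generation hybrid between Col-0 and Ler (3 and 3). ABA was given at 20 µM and the labels give 45 min for the treatment, while their protocol text has leaves harvested after 2 h, and plants were 30 days old. The background of sal1-8 is Col-0 and that of ost1-2 is Ler, and the double mutant carries both, so that a difference between genotypes cannot be told apart from one between ecotypes. The values are log2 intensities, on which a difference of 1 is a doubling. Array medians ran from 4.60 to 4.998, and the brightest probe set of each array lay between 13.57 and 13.85. The annotation names a gene for only part of the array, and 1 of 5 leaf mesophyll markers was named by it, RCA, Rubisco activase, with 11.4 to 12.1 on all arrays. A further 1, RBCS1B, a Rubisco small subunit gene, is named only by a table that the study drew up from the wild type response to ABA. Of the guard cell markers FAMA could be looked up, with 5.58 to 7.54.

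ABA is sensed by receptors that inactivate type 2C protein phosphatases and thereby release SnRK2 kinases such as OST1, which activate the ABF transcription factors at ABA-responsive promoters. Cold acts on many of the same promoters through the CBF factors. SAL1 is the phosphatase that degrades the chloroplast retrograde signal PAP, and sal1 mutants accumulate PAP. KIN1 and KIN2 encode small hydrophilic proteins that accumulate in the cold, in drought and after ABA. COR15A and COR15B encode late embryogenesis abundant proteins that enter the chloroplast and protect membranes from freezing.

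KIN1 had the widest range of the 4 genes. After ABA it lay at 4.27, 5.46 and 5.50 in the double mutant, against 3.18, 3.02 and 2.83 in mock leaves of that genotype. In ost1-2 it was 4.88 and 4.33 after ABA and 4.09 and 4.17 in mock leaves. In sal1-8 the ABA arrays had 5.40, 5.02 and 4.67 and the mock arrays 1.97, 2.97 and 2.02. In wild type it reached 7.28, 6.22 and 6.30 after ABA, against 3.33, 4.24 and 3.44 in mock leaves. In each genotype the ABA arrays lay above all mock arrays, with the narrowest gap in ost1-2. The share of all probe sets that separate in this way was not counted. Overlap between so few arrays is therefore a description, for this gene and for those below. On all 11 mock arrays KIN1 was below the median of its array, so that these levels are dim signals. KIN1 was also below it on the first ABA array of the double mutant, the second of ost1-2 and the third of sal1-8. Whether such levels lie above background was not tested. The KIN1 differences given below, after ABA as well as in mock leaves, are therefore left as log2 differences, with no fold.

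KIN2 gave a bright signal in every group. It was 12.54, 12.36 and 11.94 after ABA and 11.48, 10.77 and 11.15 in mock leaves of the double mutant. In ost1-2 it was 12.74 and 12.58 after ABA, against 12.64 and 12.17 in mock leaves. In sal1-8 it was 12.42, 11.99 and 11.90 after ABA and 10.35, 11.58 and 9.97 in mock leaves. In wild type the ABA arrays had 12.74, 12.73 and 13.04 and the mock arrays 11.56, 11.79 and 11.02. ABA and mock arrays overlapped only in ost1-2, where a mock array exceeded an ABA array.

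COR15A, likewise bright, came to nearly the same level in several groups. In the double mutant it was 12.65, 12.44 and 12.53 after ABA and 11.63, 11.44 and 11.69 in mock leaves. In ost1-2 it was 12.60 and 12.52 after ABA and 12.64 and 12.50 in mock leaves, so that the mock arrays enclosed the ABA arrays. In sal1-8 it was 12.23, 12.14 and 12.10 after ABA and 10.94, 11.89 and 10.99 in mock leaves. In wild type it was 12.66, 12.71 and 12.64 after ABA, against 11.36, 12.33 and 11.45 in mock leaves. The highest value, 12.71, is about 1 below the brightest probe sets of the arrays.

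COR15B had 8.90, 8.996 and 8.87 after ABA in the double mutant, against 8.40, 8.24 and 8.50 in mock leaves. In ost1-2 it was 9.98 and 9.59 after ABA and 9.48 and 9.21 in mock leaves. In sal1-8 it was 8.79, 8.52 and 8.09 after ABA, against 7.82, 7.999 and 7.98 in mock leaves. In wild type it was 10.30, 9.44 and 10.03 after ABA and 7.71, 8.72 and 7.29 in mock leaves. ABA and mock arrays did not overlap in any genotype, and the smallest separation was in sal1-8. By the test used below, however, COR15B changed with ABA in wild type only. The second mock array of wild type was the highest mock array of that genotype for all 4 genes, and the second mock array of sal1-8 was the highest of its group for all 4. Both lie in the same stretch of sample numbers, described under the processing. Of the other mock arrays in that stretch, the first of ost1-2 was the higher of its group for KIN2, COR15A and COR15B. The second of the double mutant was the lowest of its group for the same genes.

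**Figure D1:**
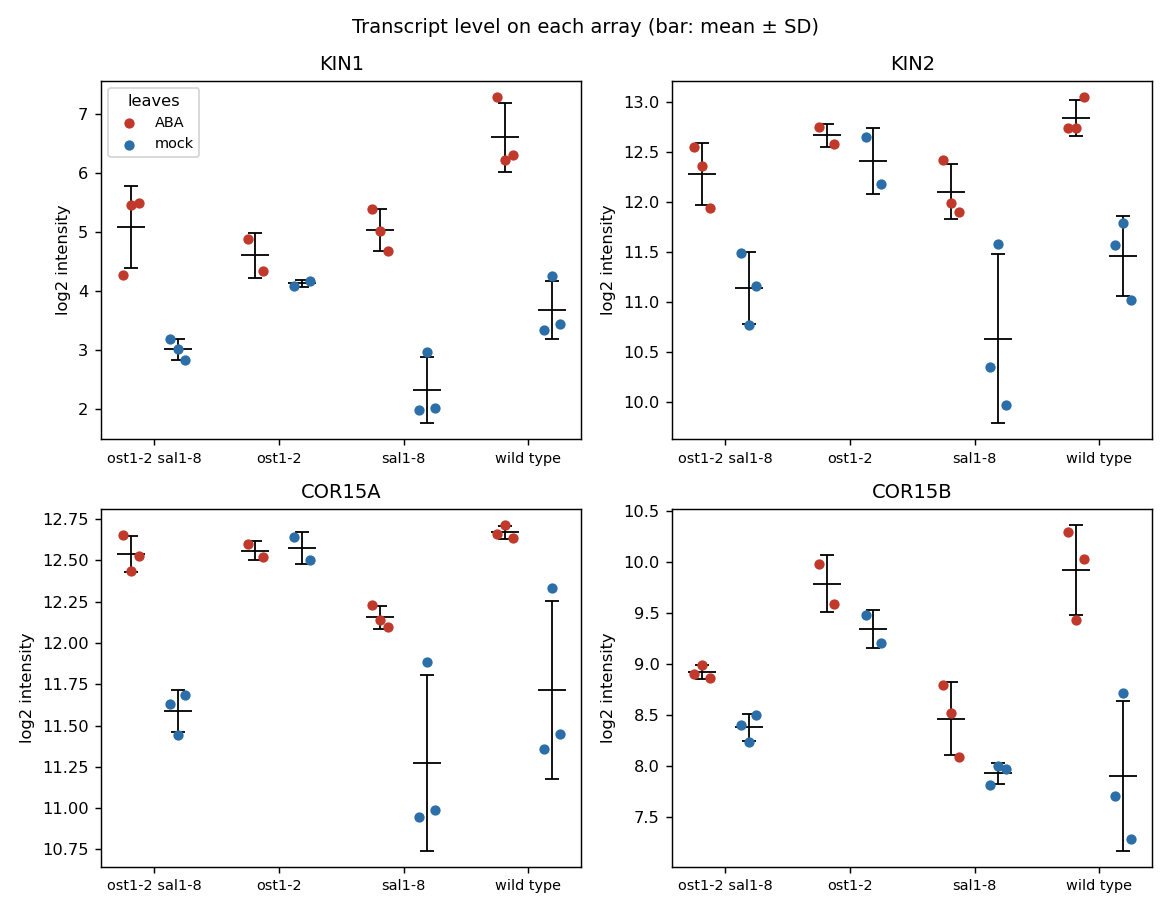
Log2 intensity of KIN1, KIN2, COR15A and COR15B (1 panel each) on every array, by genotype, with ABA arrays in red to the left of mock arrays in blue; bars give the mean ± SD of each group (n = 2 in the ost1-2 groups and 3 elsewhere). KIN1 reaches 7.28 in wild type after ABA, and COR15A in ost1-2 lies between 12.50 and 12.64 with or without ABA.

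The order of the group means was similar for the 4 genes at its top. Wild type after ABA was highest for each, with 6.60 ± 0.59 for KIN1, 12.84 ± 0.18 for KIN2, 12.67 ± 0.039 for COR15A and 9.92 ± 0.44 for COR15B (SD, n = 3). For KIN1 the other ABA groups followed, the double mutant with 5.08 ± 0.70 (SD, n = 3), sal1-8 with 5.03 ± 0.36 (n = 3) and ost1-2 with 4.60 ± 0.38 (n = 2), before the mock groups, ost1-2 with 4.13 ± 0.058 (n = 2), wild type with 3.67 ± 0.50 (n = 3), the double mutant with 3.01 ± 0.18 (n = 3) and sal1-8 with 2.32 ± 0.56 (n = 3). For the other genes ost1-2 mock leaves stood among the ABA groups. They took the third place for KIN2, with 12.41 ± 0.33 (SD, n = 2), the second for COR15A, with 12.57 ± 0.098, and the third for COR15B, with 9.35 ± 0.19, above ABA-treated leaves of the double mutant and of sal1-8 in each case. Mock leaves of sal1-8 were lowest for KIN1, KIN2 and COR15A (10.63 ± 0.84 and 11.27 ± 0.53 for the last 2, n = 3), whereas wild type mock leaves, with 7.91 ± 0.73, were lowest for COR15B, next to sal1-8 mock leaves with 7.93 ± 0.099. Among groups that are neighbours in the order of a gene, only ABA-treated double mutant and wild type leaves, for KIN1, differed by the test used below (adjusted p = 0.0032, limma).

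The response to ABA within a genotype was tested in a linear model over the 8 groups with limma, with p-values adjusted over all tested probe sets by Benjamini-Hochberg. A transcript counted as changed where its fold exceeded 1.5 and its adjusted p lay under 0.05. In each of sal1-8 and the double mutant 2 of the 4 genes rose. In the double mutant, KIN1 rose, with a log2 difference of 2.07 (adjusted p = 0.0029, SE 0.36, limma, n = 3 and 3), and COR15A 1.94-fold, by 0.95 (SE 0.23, adjusted p = 0.038), where 1.42% of all probe sets rose. KIN2 had 1.14 (SE 0.32, adjusted p = 0.082) and COR15B had 0.54 (SE 0.28, adjusted p = 0.56). In sal1-8, KIN1 rose, with a log2 difference of 2.71 (SE 0.36, adjusted p = 4.6e-04), and KIN2 2.77-fold, by 1.47 (SE 0.32, adjusted p = 0.017), where 1.39% of all probe sets rose. COR15A had 0.88 (SE 0.23, adjusted p = 0.056) and COR15B had 0.54 (SE 0.28, adjusted p = 0.43). The median over the 4 genes was 1.05 in the double mutant, beside 0.02 over all probe sets, and 1.18 in sal1-8, beside -0.02.

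Of the calls in sal1-8 and the double mutant, only those of KIN1 were kept in all alternatives. The call of COR15A in the double mutant was lost on leaving out any array of that genotype (adjusted p up to 0.20, without its second mock array) or either ABA array of ost1-2 (0.051 each). That of KIN2 in sal1-8 was lost without the first (adjusted p = 0.088) or the third (0.13) mock array or the first (0.085) or second (0.056) ABA array of sal1-8. KIN2 in the double mutant passed without the second (adjusted p = 0.012) or the third (0.049) sal1-8 mock array, and COR15A in sal1-8 passed with only the 10000 brightest named probe sets tested (adjusted p = 0.045) and without the first (0.041) or second (0.018) wild type mock array or the second sal1-8 mock array (0.0055).

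In ost1-2, 0 of the 4 passed the test in limma, where 0.0363% of all probe sets passed, or 5 in number. The log2 differences were 0.48 for KIN1 (95% interval -0.44 to 1.39, adjusted p = 0.81, limma, n = 2 and 2), 0.25 for KIN2 (-0.56 to 1.07, adjusted p = 0.90), -0.02 for COR15A (-0.61 to 0.58, adjusted p = 0.99) and 0.44 for COR15B (-0.27 to 1.16, adjusted p = 0.76). At an unadjusted p under 0.05, 0 of the 4 and 9.35% of all probe sets passed.

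In wild type all 4 genes rose, COR15B 4.05-fold, KIN2 2.60-fold and COR15A 1.94-fold, and KIN1 from dim mock signals. In this comparison 6.4% of all probe sets tested rose. On the log2 scale KIN1 gained 2.93 (SE 0.36, adjusted p = 2.5e-05, n = 3 and 3), COR15B gained 2.02 (SE 0.28, adjusted p = 8.3e-05), KIN2 gained 1.38 (SE 0.32, adjusted p = 0.0066) and COR15A gained 0.96 (SE 0.23, adjusted p = 0.0099). The median of the 4 was 1.70, beside -0.03 over all probe sets. The call of COR15A was lost without the first wild type mock array (0.78, adjusted p = 0.064) and when only the 6 wild type arrays were fitted (adjusted p = 0.10). Each of the 4 gains lies above the 95% interval of the same gene's difference in ost1-2, but a gain has an error of its own. For KIN2 and COR15A the wild type intervals, 0.72 to 2.04 and 0.47 to 1.44, overlap those of ost1-2. The test of the difference itself is given below. FAMA, the guard cell marker, fell in wild type by 1.19 on the log2 scale and had -0.21 in the double mutant, 0.16 in ost1-2 and -0.18 in sal1-8. RCA had -0.31 in wild type and passed in no genotype. RBCS1B, which was named through its wild type response, had -2.43 there (adjusted p = 2.8e-04, limma), -0.56 in the double mutant (0.68), 0.21 in ost1-2 (0.91) and -1.04 in sal1-8 (0.15). The part of these markers in the results was not tested.

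**Figure D2:**
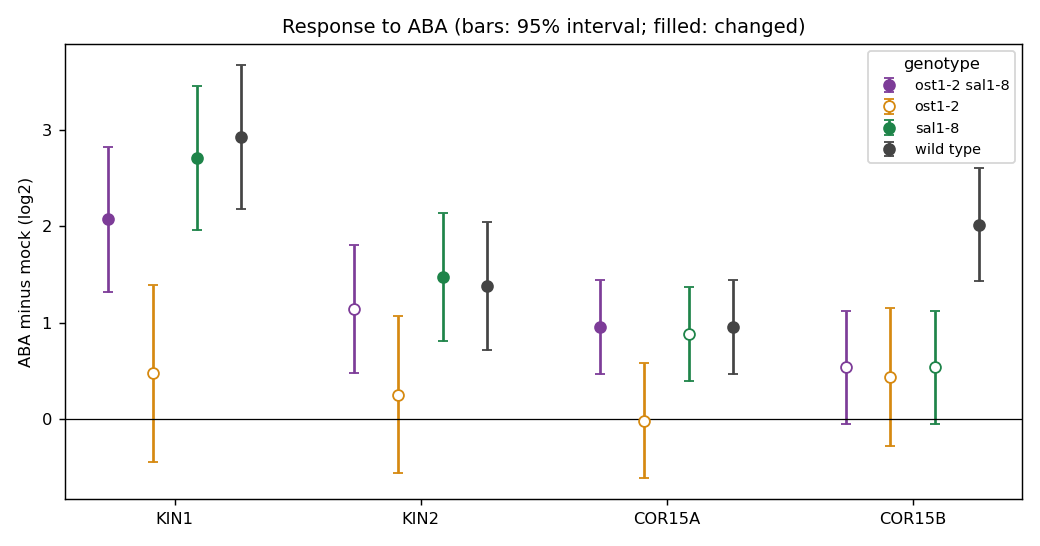
Log2 difference between ABA and mock leaves for each gene in the double mutant, ost1-2, sal1-8 and wild type, with 95% intervals from the linear model; filled points mark changed transcripts. Points are filled for 2 genes in the double mutant and in sal1-8, for 0 in ost1-2, where every interval includes 0, and for all 4 in wild type.

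Whether the responses themselves differed was tested as a difference of differences. The response of KIN1 was smaller in ost1-2 (2 ABA and 2 mock arrays) than in wild type, with a log2 difference of -2.45 (SE 0.56, limma adjusted p = 0.016), as was that of COR15B, with -1.57 (SE 0.44, adjusted p = 0.037). In this direction 3.58% of all probe sets passed. The differences were -1.13 for KIN2 (SE 0.50, adjusted p = 0.18) and -0.97 for COR15A (SE 0.37, adjusted p = 0.12). The call of KIN1 was lost without the second mock (adjusted p = 0.074) or second ABA (0.072) array of ost1-2, that of COR15B without any array of ost1-2 (up to 0.14) or without the first (0.086) or the third (0.057) mock or the first (0.059) or the third (0.078) ABA array of wild type. COR15A passed without the second wild type mock array (-1.28, adjusted p = 0.021). The marker FAMA passed in the same comparison in the other direction, with 1.35 (adjusted p = 0.021, limma). RBCS1B had 2.64 there, given as a description only. It was named through its wild type response, which this difference contains, so that the choice favours a large value. The part of these markers was not tested.

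The responses of sal1-8 and the double mutant set against wild type gave 0 calls among the 4 genes, in comparisons with 0.276% and 0.138% of all probe sets called. At an unadjusted p under 0.05, COR15B passed in both, as did 9.04% of all probe sets in sal1-8 and 11% in the double mutant. KIN1, KIN2 and COR15A had log2 differences in sal1-8 minus wild type of -0.22 (95% interval -1.27 to 0.84), 0.09 (-0.85 to 1.03) and -0.07 (-0.76 to 0.61). In the double mutant minus wild type they had -0.86 (-1.91 to 0.20), -0.24 (-1.18 to 0.70) and 0.00 (-0.69 to 0.69). COR15B had -1.48 in both comparisons (-2.31 to -0.65 and -2.30 to -0.65), unadjusted p = 0.0014 in each, and adjusted p = 0.18 in sal1-8 and 0.16 in the double mutant (limma, n = 3 in each group). Without the second wild type mock array both passed, with -1.88 (adjusted p = 0.019 for sal1-8 and 0.025 for the double mutant).

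Between the double mutant and ost1-2 the responses of KIN1, COR15A and KIN2 had differences of 1.59 (95% interval 0.41 to 2.78), 0.97 (0.20 to 1.74) and 0.89 (-0.16 to 1.94) on the log2 scale, and that of COR15B one of 0.10 (-0.83 to 1.02). None passed the test (adjusted p = 0.35 for KIN1, the lowest of the 4, limma), in a comparison with 0.225% of all probe sets called. At an unadjusted p under 0.05, KIN1 and COR15A passed there, as did 9.4% of all probe sets. KIN1 passed with array weights (1.91, adjusted p = 0.027). Between the double mutant and sal1-8 the differences ran from -0.64 for KIN1 to 0.07 for COR15A, with 0 calls in limma among the 4 and among all probe sets tested (382 probe sets, or 2.77%, at an unadjusted p under 0.05, and 0 of the 4).

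Levels without ABA were compared between genotypes to see where each response set out. COR15B was higher in ost1-2 than in wild type mock leaves with a log2 difference of 1.44 (limma adjusted p = 0.019, SE 0.31, n = 2 and 3), where 0.827% of all probe sets were higher. KIN2, COR15A and KIN1 had differences of 0.95 (SE 0.35, adjusted p = 0.22), 0.86 (SE 0.26, adjusted p = 0.11) and 0.46 (SE 0.40, adjusted p = 0.71). The call of COR15B was lost without either ost1-2 mock array (adjusted p = 0.17 and 0.11) or the first (0.065) or the third (0.066) wild type mock array, and COR15A passed without the second mock array of wild type (1.17, adjusted p = 0.015) or of sal1-8 (0.041).

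In sal1-8 mock leaves KIN1 was lower than in wild type mock leaves, with a log2 difference of -1.35 (SE 0.36, adjusted p = 0.0096, limma, n = 3 and 3; -1.07 and 0.061 without the second wild type mock array), where 9.82% of all probe sets were lower. KIN2 had -0.83 (adjusted p = 0.062), COR15A -0.44 (0.17) and COR15B 0.02 (0.96). KIN2 passed in 4 of 33 alternatives. These include leaving out the third wild type mock array (-1.05, adjusted p = 0.041) or the second sal1-8 mock array (-1.30, 0.0019). COR15A passed in 2, among them without that sal1-8 array (-0.75, 0.017). In the double mutant against wild type mock leaves 0 of the 4 passed, with -0.66 for KIN1, -0.32 for KIN2, -0.13 for COR15A and 0.48 for COR15B (adjusted p from 0.21 to 0.74, where 16.8% of all probe sets passed, and 0 of the 4 against 32.1% at an unadjusted p under 0.05). COR15B passed without the second wild type mock array (0.88, adjusted p = 0.018).

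Set against ost1-2 mock leaves, double mutant mock leaves had lower KIN2, by a log2 difference of -1.27 (SE 0.35, adjusted p = 0.015, limma, n = 3 and 2), lower COR15A, by -0.99 (SE 0.26, adjusted p = 0.011), and lower COR15B, by -0.96 (SE 0.31, adjusted p = 0.034). In that direction 7.87% of all probe sets passed. KIN1 had -1.12 (SE 0.40, adjusted p = 0.052), and passed in 11 of 33 alternatives. These include a test of only the 10000 brightest named probe sets (0.046). They also include leaving out the first or second wild type mock, first wild type ABA, second sal1-8 mock or first double mutant ABA array (adjusted p from 0.030 to 0.050). The call of KIN2 was lost without the first ost1-2 (adjusted p = 0.15) or second double mutant (0.064) mock array, that of COR15A without either ost1-2 mock array (0.083 and 0.054), and that of COR15B without any mock array of the 2 genotypes (0.056 to 0.20). Between the double mutant and sal1-8 mock leaves all 4 differences were positive, 0.69 for KIN1, 0.50 for KIN2, 0.31 for COR15A and 0.45 for COR15B, and 0 passed (adjusted p from 0.40 to 0.60, where 3.31% of all probe sets passed, and 0 of the 4 against 14.3% at an unadjusted p under 0.05). KIN1 and KIN2 each passed in 1 of 33 alternatives (adjusted p = 0.048 and 0.035, limma).

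After ABA, 1 gene of each pair was lower in mutants than in wild type by the test. KIN1 was lower than in wild type in all mutants, with log2 differences of -1.52 in the double mutant (SE 0.36, adjusted p = 0.0032, limma, n = 3 and 3), -1.996 in ost1-2 (adjusted p = 0.0042, SE 0.40, n = 2 and 3) and -1.57 in sal1-8 (SE 0.36, adjusted p = 0.0031, n = 3 and 3). KIN2 passed in none of these comparisons, with -0.56 in the double mutant (adjusted p = 0.19), -0.18 in ost1-2 (0.81) and -0.74 in sal1-8 (0.089). COR15B was lower in the double mutant, with -1.002 (SE 0.28, adjusted p = 0.010; lost with stretches of the sample numbers as a fixed block, -0.77, 0.052) and in sal1-8, with -1.46 (SE 0.28, adjusted p = 7.9e-04), whereas in ost1-2 its difference was -0.14 (95% interval -0.79 to 0.52, adjusted p = 0.84). COR15A passed in none, with -0.13, -0.11 and -0.51 in the double mutant, ost1-2 and sal1-8 (adjusted p = 0.71, 0.84 and 0.10). Of all probe sets 9.8% were lower in the double mutant, 4.7% in ost1-2 and 11.1% in sal1-8. The KIN1 call in ost1-2 was lost without its second ABA array (-1.73, adjusted p = 0.078) and the COR15B call in the double mutant without the first wild type ABA array (-0.81, 0.051). KIN2 in sal1-8 passed in 3 of 33 alternatives, among them without the second sal1-8 mock array (adjusted p = 0.025).

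**Figure D3:**
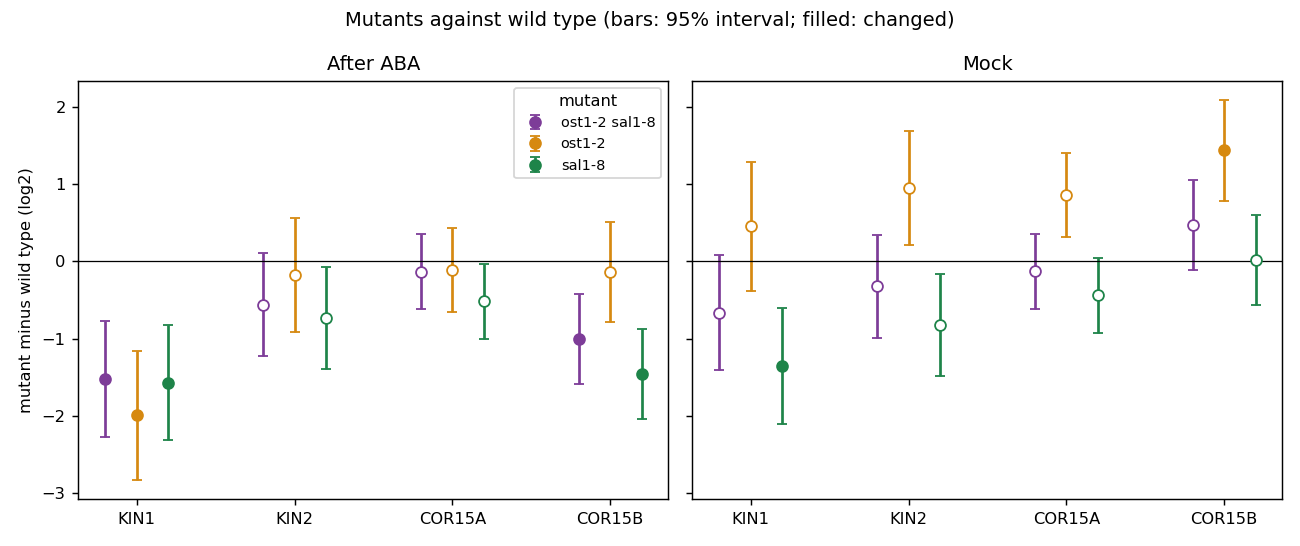
Log2 difference of the double mutant, ost1-2 and sal1-8 from wild type for each gene, after ABA in the left panel and in mock leaves in the right panel, with 95% intervals; filled points mark changed transcripts. After ABA the KIN1 points are filled and below 0 in all mutants, the COR15B points are filled in the double mutant and sal1-8 and open in ost1-2 (-0.14), and in mock leaves COR15B in ost1-2 is above it by 1.44.

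Between ABA-treated mutants, COR15B had a log2 difference of -0.87 in the double mutant minus ost1-2 (SE 0.31, adjusted p = 0.073, limma, n = 3 and 2) and KIN1 one of 0.47 (SE 0.40, adjusted p = 0.50), where 13.2% of all probe sets passed. At an unadjusted p under 0.05, COR15B passed there, as did 26.6% of all probe sets. COR15B passed there in 4 of 33 alternatives, among them without the second (adjusted p = 0.019) or the third (0.043) wild type mock array. Between the double mutant and sal1-8 the differences ran from 0.05 for KIN1 to 0.45 for COR15B (adjusted p from 0.36 to 0.96), where 5.4% of all probe sets passed, and 0 of the 4 against 21% at an unadjusted p under 0.05.

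Within each pair the change after ABA was then compared on the same array, as the log2 value of a gene minus that of its neighbour. Only changes of this difference are read here, since levels of different probe sets are not on a common scale. KIN1 minus KIN2 moved upwards with ABA, by 0.99 on average over the 4 genotypes (exact permutation test with treatment permuted within genotypes, two-sided, p = 4.6e-04 and 0.0046 after adjustment over 10 tests, n = 22 arrays). The change was 0.93 in the double mutant, 0.22 in ost1-2, 1.24 in sal1-8 and 1.55 in wild type. ABA arrays lay above all mock arrays of their genotype in sal1-8 (-7.23 to -6.97 against -8.61 to -7.95) and in wild type (-6.74 to -5.45 against -8.23 to -7.55), and overlapped with them in the double mutant and ost1-2 (exact permutation tests, two-sided, p = 0.10 in sal1-8 and in wild type, the smallest that 3 against 3 allow, 0.20 in the double mutant, and 0.67 in ost1-2, where 2 against 2 allow 0.33). KIN1 is the dim and KIN2 the bright probe set of this pair, and the part of signal range in the larger change of KIN1 was not tested.

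The COR15 pair had no common direction. COR15A minus COR15B changed with ABA by 0.41 in the double mutant, by -0.46 in ost1-2, by 0.34 in sal1-8 and by -1.06 in wild type, with a mean of -0.19 (exact permutation test, two-sided, p = 0.31 and 0.37 after adjustment, n = 22 arrays). In the double mutant the ABA arrays had 3.44 to 3.75 and the mock arrays 3.18 to 3.23, and in wild type the ABA arrays had 2.36 to 3.28 and the mock arrays 3.62 to 4.16, without overlap in either (exact permutation tests, two-sided, p = 0.10 each, as low as 3 against 3 can give). In ost1-2 the ABA arrays, with 2.61 and 2.93, lay below the mock arrays, with 3.16 and 3.29 (p = 0.33, exact permutation test, the smallest possible), and in sal1-8 the arrays overlapped (p = 0.30, exact permutation test). A test between genotypes, chosen after these values were seen, permuted genotype within each treatment. Its null is therefore no difference between the genotypes in either treatment, and not equal changes alone. The change in the double mutant exceeded that in wild type by 1.48 (exact permutation test, two-sided, p = 0.0050, as low as this test can give). After adjustment over 10 tests this p is 0.050, which does not pass, and a lone smallest p could not have passed here. The change in sal1-8 exceeded that in wild type by 1.41 (exact, p = 0.025, adjusted 0.13), and that in the double mutant exceeded ost1-2 by 0.87 (exact, p = 0.040, adjusted 0.13). The other comparisons of this pair had p of 0.21 or more (exact). For KIN1 minus KIN2 the corresponding p-values between genotypes were 0.23 or more (exact permutation tests). COR15A is the brighter probe set of its pair, and the part of signal range was not tested for this pair either.

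**Figure D4:**
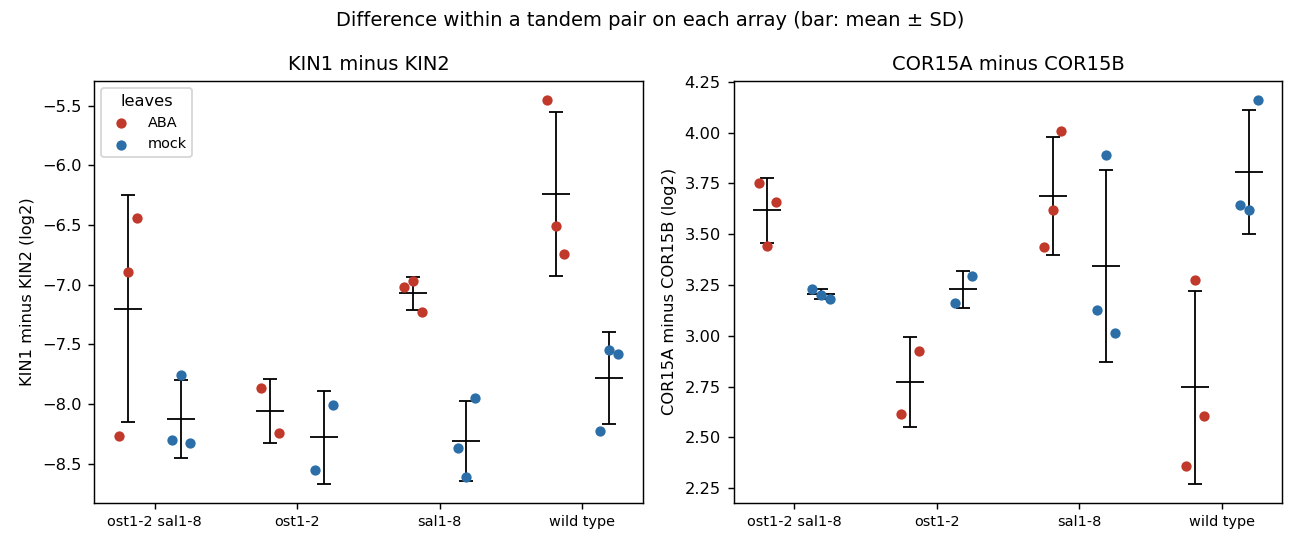
KIN1 minus KIN2 (left) and COR15A minus COR15B (right) on the log2 scale for every array, by genotype, with ABA arrays in red to the left of mock arrays in blue and bars for the mean ± SD (n = 2 in the ost1-2 groups and 3 elsewhere). The left difference is higher after ABA by 0.22 to 1.55, whereas the right one is higher after ABA in the double mutant and sal1-8 and lower in ost1-2 and wild type.

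Across the 22 arrays the closest likeness was not within the pairs. Pearson's r, given as a description because arrays of a group share their condition, was 0.94 between KIN2 and COR15A, and each was the nearest of 13142 single-gene probe sets to the other. It was 0.84 between KIN1 and KIN2, where KIN2 ranked 76th for KIN1 and KIN1 50th for KIN2, and 0.83 between COR15A and COR15B, where COR15B ranked 39th for COR15A and COR15A 20th for COR15B. After the group means were taken off, r was 0.75 for KIN2 and COR15A, 0.35 for KIN1 and KIN2 and 0.57 for COR15A and COR15B. Next after COR15A, KIN2 was most like AT4G12000, a SNARE-associated Golgi family gene (r = 0.91), AT2G40435 (0.91), AT4G21570 (0.89) and COR47, a dehydrin (0.89). COR15A was most like, after KIN2, AT1G01250 (0.90), AT4G12000 (0.89), AT3G48460, a GDSL esterase (0.89), and AT1G70640 (0.88). KIN1 was most like AT1G17940, a BRO1-like domain gene (0.93), AT5G57610 (0.92), AT1G02816 (0.92), AT3G20300 (0.92) and AT4G23050 (0.92). COR15B was most like AT1G75900, annotated as the GDSL esterase EXL3 (0.90), AT1G21790 (0.88), AT1G01250 (0.87), AT1G32860, a glucan endo-1,3-beta-glucosidase (0.87), and LTI30, a dehydrin (0.86).

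The genes next to the pairs were also read. AT5G15980, a pentatricopeptide repeat gene directly beside KIN2, rose after ABA by 1.25 in the double mutant (adjusted p = 0.0094, limma) and by 1.07 in sal1-8 (adjusted p = 0.027) but fell in wild type, with a log2 difference of -1.24 (SE 0.25, adjusted p = 0.0028). Its response minus that of wild type was 2.49 in the double mutant (adjusted p = 0.0044, limma) and 2.31 in sal1-8 (0.0085). In those comparisons 0.138% and 0.276% of all probe sets passed. AT5G15950, directly beside KIN1, rose by 1.84 in the double mutant (SE 0.32, adjusted p = 0.0031) and by 2.45 in sal1-8 (adjusted p = 4.6e-04), with 0.79 in wild type (adjusted p = 0.12). Beside the COR15 pair, AT2G42520 and AT2G42550 had log2 differences between -0.22 and 0.45 over the 4 genotypes and passed in none. AT2G42560, the next gene beyond AT2G42550, rose in wild type by 1.94 (SE 0.49, adjusted p = 0.013, limma), and had 1.08 in the double mutant (adjusted p = 0.46), -0.06 in ost1-2 (0.99) and 0.89 in sal1-8 (0.47). In ost1-2, AT5G15980 had -0.22 (adjusted p = 0.90, limma) and AT5G15950 had 0.24 (0.91). Of all probe sets 1.42% rose after ABA in the double mutant, 1.39% in sal1-8 and 6.4% in wild type. Neighbours were chosen by position, up to 4 places from each pair. The others that were tested, AT5G15940, AT2G42490, AT2G42510 and TBL39, passed in no genotype.

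Other cold- and dehydration-regulated genes served as a background to the 4. Of 22 such genes listed, the array annotation names COR47 and LTI30. Both rose in the double mutant, sal1-8 and wild type, and 0 of these 2 passed in ost1-2. COR47 rose by 1.52 in the double mutant (SE 0.23, adjusted p = 0.0010, limma), 1.48 in sal1-8 and 1.73 in wild type, with 0.25 in ost1-2. LTI30 rose by 2.19 in the double mutant, 2.01 in sal1-8 and 3.98 in wild type, with 0.66 in ost1-2. LTI30 is a dim signal, from 1.21 to 7.43 over the arrays. Its median of 3.81 lies below the lowest array median, 4.60. Whether its low levels lie above background was not tested, which limits all LTI30 differences given here. The LTI30 response was smaller in sal1-8 than in wild type, with a log2 difference of -1.97 (adjusted p = 0.040, limma), where 0.276% of all probe sets passed. In the double mutant minus wild type it had -1.79 (adjusted p = 0.097). In mock leaves COR47 and LTI30 were higher in ost1-2 and lower in sal1-8 and in the double mutant than in wild type. In ost1-2 COR47 had 1.02 (adjusted p = 0.04996, limma, barely under the threshold) and LTI30 1.998 (0.0021), where 0.827% of all probe sets were higher. In sal1-8 they had -1.44 and -1.22, where 9.82% of all probe sets were lower. In the double mutant they had -1.13 and -1.36, where 16.8% of all probe sets passed in either direction. A further 8 of the 22 are named only by the table that the study drew up from the wild type response. That choice favours genes that respond to ABA, so that their values are a description and are set against no background. Their log2 differences between ABA and mock leaves ran from 1.62 to 2.12 in the double mutant, from -0.32 to 0.48 in ost1-2 and from 1.14 to 2.89 in sal1-8. They include the dehydrins ERD10 and RAB18, with 1.93 (SE 0.19) and 1.62 (SE 0.31) in the double mutant, and COR413-PM1, a cold-regulated membrane protein gene, with 2.12 (SE 0.26). Of 14 transcription regulators of the cold and ABA pathways, the annotation names ZAT10, a zinc finger factor, which had 1.40 in the double mutant (adjusted p = 0.14, limma), -0.97 in ost1-2 (0.61) and 1.25 in sal1-8 (0.17) and rose in wild type by 1.84 (SE 0.43, adjusted p = 0.0078). In sal1-8 mock leaves ZAT10 was higher than in wild type mock leaves, with 1.29 (adjusted p = 0.035, limma). The share of all probe sets that were higher there is not given here. The same table names a further 1, ABF2, with 1.33 in the double mutant, 0.21 in ost1-2 and 1.39 in sal1-8, likewise as a description.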

How the data were processed

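The deposited values are log2 intensities, which the authors obtained in R 3.1.0 with oligo 1.28.0 by background correction, quantile normalization and median polish to transcript level. All 22 columns were used. The authors' filters on detection and cross-hybridization were not used here, and probe sequences and promoter or protein sequences were not analysed here, so that signal shared between the paralogues of a pair was not tested. Of 38408 probe sets, 17481 are named by the array annotation (16722 with a single gene). The 13780 of these with the greatest highest group mean, down to 3.02, were tested, 13143 of them with a single gene. The KIN1 means of mock leaves in sal1-8 (2.32) and the double mutant (3.01) lie under that value. A model with 8 group coefficients was fitted with limma 3.58.1 in R 4.3.3. Calls required a fold above 1.5 with an adjusted p under 0.05, and intervals cover 95%. Within-pair differences were tested by exact permutation. The scripts were tested on simulated data. Replicates are numbered in the order of the samples. The paper describes triplicates with a leaf per sample. The precision is limited by the few arrays, and p-values measure only the spread between them. The sample numbers in the titles were divided into 7 stretches of near numbers, each of a single treatment, where the treatment changes along the numbers or they skip. No label names these stretches as batches. Arrays of a stretch deviated together with a consensus correlation of 0.016 over the tested probe sets (duplicateCorrelation), which is no value for single genes. The 4 genes and all lists were chosen with earlier results of these data known. Named are the 4 genes, the 5 genes most like each by Pearson's r over the arrays, called genes of the lists, and neighbours by position. Of the seed markers listed, none is named by the annotation. The study's table of ABA-responsive genes gave gene names of further probe sets, and its fold changes and p-values were not used. Alternatives were other sets of probe sets, no minimum fold, a fit to the compared groups alone, array weights, a trended robust prior, further quantile normalization, subtraction of array medians, the stretch as a block, and leaving out each array.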

Additional observations from a re-analysis of the deposited data

Results flagged for a closer look

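The response to ABA differed between ost1-2 and wild type by a test of the difference itself for 2 of the 4 genes, KIN1 (-2.45 on the log2 scale) and COR15B (-1.57). For COR15B the level of ost1-2 mock leaves was already higher than that of wild type mock leaves by 1.44 and the levels after ABA differed by -0.14, whereas for KIN1 the mock leaves differed by 0.46 and the ABA leaves by -1.996.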

How the results depend on the processing

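Over 32 or 33 alternatives for each gene and comparison, 0 calls reversed, while 55 values that passed in neither fit changed sign. No minimum fold, every named probe set and stretches of sample numbers as a random block changed no call of a response within a genotype. COR15A in sal1-8 (0.88) passed with the 10000 brightest named probe sets (0.88), with bright probe sets from the whole array (0.88), with a trended robust prior (0.88), array weights (1.09), further quantile normalization (0.98) and subtraction of array medians (1.02), and ran from 0.72 to 1.19 over single arrays left out. KIN2 in the double mutant (1.14) passed in a fit to the compared groups alone (1.14) and with array weights (1.14), with 0.96 to 1.32 over arrays left out. In fits to the compared groups alone, KIN2 in sal1-8 (1.47) and COR15A in wild type (0.96) no longer passed, and over arrays left out they ran from 1.14 to 1.94 and from 0.78 to 1.26. COR15A in the double mutant no longer passed with array medians subtracted (1.01), and ran from 0.88 to 1.004 over arrays left out. The mean change of KIN1 minus KIN2 (0.99) was 0.89 to 1.12 over arrays left out, past the test each time, and a single genotype was too few for it to pass (0.93 in the double mutant, 0.22 in ost1-2, 1.24 in sal1-8 and 1.55 in wild type).

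In fits to the compared groups alone, the COR15B difference between the responses of ost1-2 and wild type had an adjusted p of 0.16 (limma; 0.058 with array weights) and that between their mock leaves 0.22. Over all probe sets, the calls in wild type were 1660, against 653 for the compared groups alone and 2688 with the whole array, and array weights gave 577 in the double mutant (253 without), 251 in ost1-2 (5) and 914 in sal1-8 (292). The causes of these changes were not tested. Comparisons between genotypes could be made within stretches of sample numbers. With the stretch as a fixed block, COR15B after ABA in the double mutant against wild type no longer passed (-0.77, adjusted p = 0.052) and KIN1 in mock leaves of the double mutant against ost1-2 passed (-1.04, 0.048), with no other change of call among the 4 genes. No paired analysis was possible because, for ABA against mock leaves, each stretch holds a single treatment and the labels carry no replicate numbers.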
